A study of Homo sapiens with 27 samples.

Results

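The THO complex is the core of TREX, the assembly that binds nascent mRNA during transcription and splicing and hands it to the export receptor NXF1. Its human subunits are encoded by THOC1, THOC2, THOC3, THOC5, THOC6 and THOC7. THOC2 is the large scaffold on which the other subunits are built, THOC1 folds against it, THOC3 and THOC6 are beta-propeller (WD40) proteins, and THOC5 and THOC7 form a coiled-coil pair. The gene once called THOC4 is now ALYREF, an RNA-binding export adaptor that THO recruits together with the helicase DDX39B. These 6 genes were chosen by name, by matching their Ensembl gene IDs, and all 6 were found among the 34464 genes of the expression table. The values below are those of the subunits' own mRNAs, not of the proteins or of their activity in export.

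RNA Frac-Seq was carried out on U2OS cells, a human osteosarcoma line. The cells received a control shRNA or 1 of 2 shRNAs against TPR, a filament protein of the nuclear basket on the inner face of the pore. These shRNAs are named 'TPR A' and 'TPR D', and all 3 came from lentivirus. Depletion lasted 5 days for these libraries, and the general shRNA method of the paper selected infected cells with puromycin. Each of the 3 groups had 3 replicate cultures, and each culture was lysed with detergent and split into a nuclear fraction, a cytoplasmic/ER fraction and a reserved total sample. Poly(A)+ RNA of these gave 27 libraries. Both TPR groups are pools of infected cells, in which TPR was lowered and not deleted. The question put to these libraries was which mRNAs change in level or in location when TPR is depleted.

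Levels are FPKM, fragments scaled by transcript length and by library size, so that genes can be compared per length. The N/C ratio is the nuclear divided by the cytoplasmic/ER level of the same culture. Each library is scaled to itself, so an N/C ratio of 1 marks a typical mRNA and not equal numbers of molecules in both compartments. In bulk RNA, fewer cells with a transcript and less transcript per cell cannot be told apart.

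Before the results, the libraries themselves were checked. TPR itself was at 25.3 to 28.2 FPKM in the control total libraries, against 3.44 to 4.70 with TPR A and 3.23 to 6.01 with TPR D. Of the mesenchymal and bone-lineage markers, VIM, SPARC, COL1A1 and RUNX2 were present in each library, ALPL was at 1.02 to 16.0 FPKM and COL1A2 did not exceed 0.744 FPKM. Of the markers of other cell types, ALB, PTPRC and CDH1 stayed at or below 1.67 FPKM, and EPCAM was at 1.43 to 6.87 FPKM. The mRNAs of the mitochondrial genome took 26.5 to 37.9% of the FPKM in cytoplasmic/ER libraries, 15.8 to 24.7% in 8 total libraries and 0.774 to 2.42% in 8 nuclear libraries. Control replicate 2 went against its labels in this respect. Its nuclear library held 21.8% and its total library 0.738%, and these 2 libraries were closest in profile to the total and to the nuclear libraries, respectively, whereas the other 25 of 27 were closest to their own fraction. Tested differences that move with this culture are given with and without it. Intervals, correlations and orders of level include it unless stated.

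The THO mRNAs differ widely in build. In the MANE Select transcripts of GENCODE release 44 on GRCh37, THOC2 (ENSG00000125676, chrX:122734412-122866906, minus strand) has 39 exons and an mRNA of 5600 nt. THOC5 (ENSG00000100296, chr22:29901868-29951205, minus strand) has 20 exons and 4728 nt. THOC1 (ENSG00000079134, chr18:214520-268050, minus strand) has 21 exons and 2108 nt. The remaining mRNAs are short. THOC3 (ENSG00000051596, chr5:175344876-175461683, minus strand) has 6 exons and 1601 nt. THOC6 (ENSG00000131652, chr16:3074028-3077756, plus strand) has 13 exons and 1411 nt, and THOC7 (ENSG00000163634, chr3:63819546-63849544, minus strand) has 8 exons and 892 nt.

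The reads of THOC3 cannot be assigned to it alone. Further along chromosome 5 lie 2 annotated genes, ENSG00000170089 (177302596-177310832) and ENSG00000291113 (177236408-177377733). Their transcripts matched the THOC3 mRNA in the same direction, at 99.716% over 1057 nt and at 99.621% over 1583 nt. Neither has a row in the expression table, so their reads could have been counted as THOC3. ENSG00000170089 differed in the 1057 nt at 1 gapped position and by 2 substitutions, C158T and G1049A, counted from 1 at the 5′ end of the THOC3 mRNA with the THOC3 base first, and both substitutions lie in the coding sequence. The windows around them are shown because reads that cross neither these bases nor the gap cannot tell the matched stretches apart. The differing base is in capitals, and positions are those of THOC3 on the minus strand of GRCh37.

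THOC3 at chr5:175395147-175395175: ttgggccagagcggCcccggctcgatggc
ENSG00000170089 at C158T: ttgggccagagcggTcccggctcgatggc
THOC3 at chr5:175387072-175387100: accttcacagtggcGtggcaccccaaaag
ENSG00000170089 at G1049A: accttcacagtggcAtggcaccccaaaag

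A pair of smaller overlaps lie on opposite strands. The start of the THOC6 mRNA shares 239 nt with HCFC1R1 and the end of the THOC1 mRNA shares 110 nt with USP14, both of which are in the table, HCFC1R1 at 80.5 to 361 FPKM and USP14 at 18.1 to 42.8 FPKM. The library kit marks strand, but the strand setting of the quantification is not given in the sources used here. The antisense and divergent lncRNAs THOC3-AS1, THOC7-AS1 and THOC1-DT stayed at or below 0.425 FPKM in each library.

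THOC1 and THOC2 encode the pair at the core of the complex, and their mRNAs stood lowest of the 6 per length by the median over libraries of each fraction. In total RNA THOC2 overlapped THOC6, which was above it in 6 of 9 libraries. THOC1 was at 8.58 to 13.02 FPKM over the 9 nuclear libraries, with a median of 10.6, at 2.51 to 6.72 in cytoplasmic/ER RNA, median 4.88, and at 6.76 to 12.2 in total RNA, median 8.70. THOC2 was at 20.8 to 31.2 FPKM in nuclear RNA, median 27.7, at 3.33 to 9.13 in cytoplasmic/ER RNA, median 7.09, and at 19.9 to 38.6 in total RNA, median 25.5. For both genes each nuclear library was above each cytoplasmic/ER library. The share of all genes separated in this way over all cultures is not given here, and the shares within each shRNA group follow below.

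The other subunits stood higher. THOC3, with the proviso above, was at 84.5 to 122 FPKM in nuclear, 101 to 173 in cytoplasmic/ER and 61.02 to 139 in total libraries. THOC5, the coiled-coil subunit, was at 46.3 to 82.1 FPKM in nuclear, 66.1 to 106 in cytoplasmic/ER and 22.8 to 85.7 in total libraries. THOC7, its partner, was at 34.1 to 75.8 FPKM in nuclear, 50.8 to 106 in cytoplasmic/ER and 37.5 to 95.3 in total libraries. Both coiled-coil mRNAs thus had overlapping levels in each fraction. THOC6 was at 22.9 to 40.4 FPKM in nuclear, 38.0 to 63.8 in cytoplasmic/ER and 21.7 to 34.9 in total libraries. Several of these limits came from control replicate 2. Without it THOC3 reached 156 FPKM in cytoplasmic/ER and 95.3 in total libraries, and THOC5 reached 64.3 in total libraries. THOC7 then reached 66.2 FPKM in nuclear libraries, and THOC6 was at 26.3 to 40.4 in nuclear and 21.7 to 33.5 in total libraries.

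Ordered by the median over libraries, the nuclear levels ran THOC3, THOC5, THOC7, THOC6, THOC2 and THOC1. Of the neighbours in this order, THOC3 and THOC5 did not overlap and nor did THOC2 and THOC1, while the other 3 pairs overlapped. The cytoplasmic/ER order was the same, but there the only neighbours whose ranges were separate were THOC6 and THOC2, which differed by a median of 6.95 times. In total RNA, THOC7 stood above THOC5, and only THOC2 and THOC1 were separate. THOC1 and THOC2 together made up 10.1 to 15.6% of the summed THO FPKM in nuclear libraries and 10.6 to 17.9% in total libraries, but 1.72 to 5.27% in cytoplasmic/ER libraries. This share did not overlap between the cytoplasmic/ER and the other libraries.

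**Figure D1:**
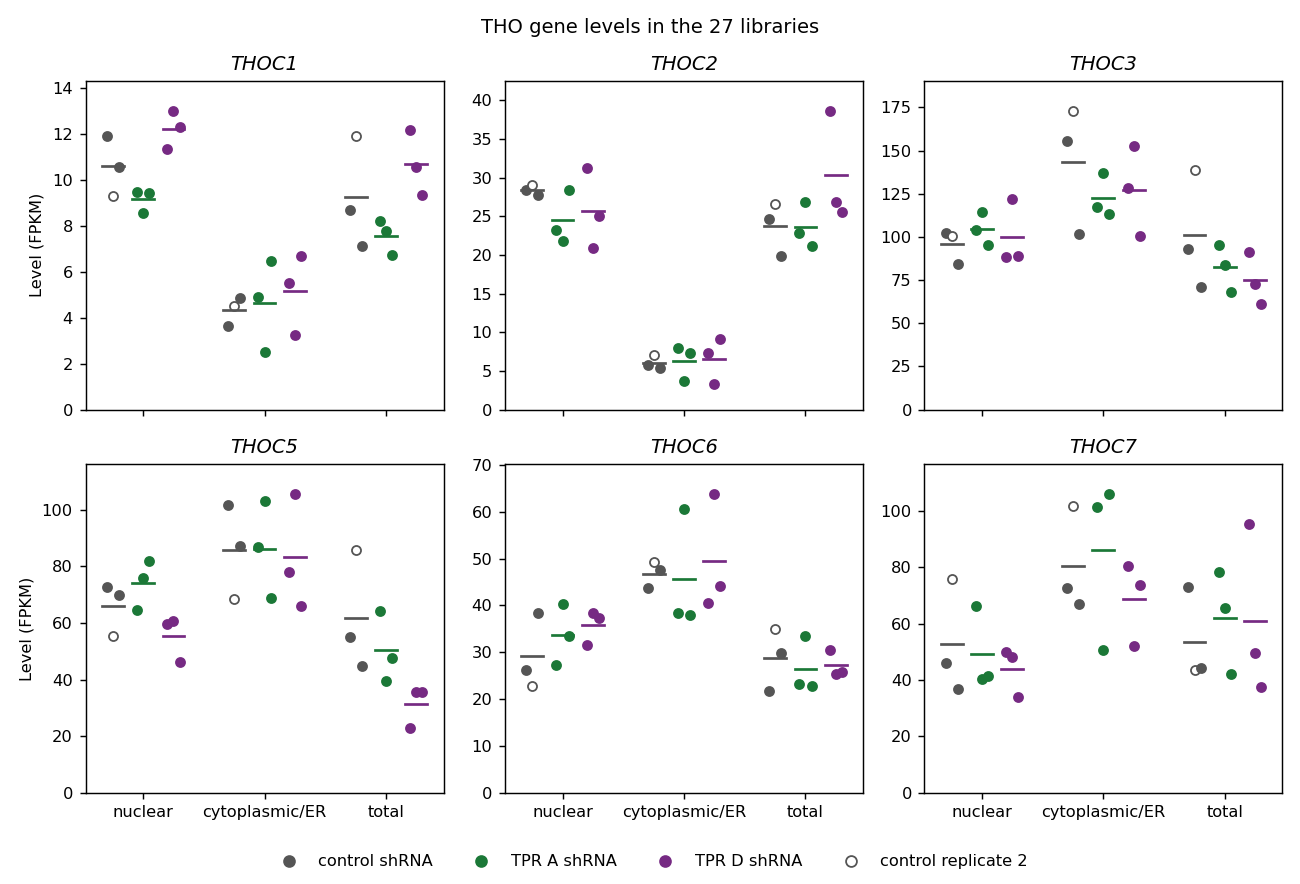
Level in FPKM (vertical axis, from 0) of the 6 THO genes in the nuclear, cytoplasmic/ER and total libraries, with 1 point per library, bars at the mean of 3 and open points for control replicate 2. THOC1 and THOC2 fall to 2.51 to 9.13 FPKM in the cytoplasmic/ER fraction, where the other 4 genes have their highest medians.

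The first comparison was between the nuclear and cytoplasmic/ER fractions in control cells. THOC2 was nuclear-enriched 4.78-fold and THOC1 2.47-fold, whereas THOC6 was 1.597-fold lower in the nucleus. THOC3, THOC5 and THOC7 had lower mean levels in the nuclear fraction, but none of these passed the test. Thus 3 of the 6 genes were called, 2 of them higher and 1 lower in the nucleus, at an adjusted p under 0.05 in limma. Among all 14611 genes analysed 39.4% were called, 20.2% higher and 19.2% lower, so a share of 3 in 6 is not far from that of genes at large.

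For THOC2, nuclear levels in control replicates 1, 2 and 3 were 28.4, 29.1 and 27.7 FPKM, and cytoplasmic/ER levels were 5.75, 7.09 and 5.35 FPKM. The groups were far apart, at 28.4 ± 0.680 and 6.06 ± 0.911 FPKM (SD, n = 3). The log2 N/C ratio was 2.26 (SE 0.30, limma adjusted p = 1.1e-05), higher than that of 98.4% of the genes.

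For THOC1, the nuclear levels were 11.9, 9.31 and 10.6 FPKM against 3.63, 4.53 and 4.88 FPKM in the cytoplasmic/ER fraction. Again the groups did not overlap, with means of 10.6 ± 1.31 and 4.35 ± 0.643 FPKM (SD, n = 3). The log2 N/C ratio was 1.31 (SE 0.27, limma adjusted p = 0.000688), higher than that of 90.8% of the genes.

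THOC6 showed the opposite order. Its nuclear levels were 26.3, 22.9 and 38.5 FPKM and its cytoplasmic/ER levels 43.6, 49.3 and 47.5 FPKM, with each nuclear value below each cytoplasmic/ER value. The log2 N/C ratio was -0.68 (SE 0.24, limma adjusted p = 0.0275). This call was lost without control replicate 2, at -0.48 (limma adjusted p = 0.213), and also without control replicate 1, at -0.66. Without control replicate 2, THOC1 and THOC2 were called as before, at 1.42 (limma adjusted p = 0.0037) and 2.35 (limma adjusted p = 0.000202), and 29.8% of all genes were called.

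The other 3 mRNAs pointed the same way as THOC6 with less certainty. THOC3 was at 102, 101 and 84.5 FPKM in the nucleus and at 156, 173 and 102 FPKM in the cytoplasmic/ER fraction, which just overlap. Its log2 N/C ratio was -0.52 (SE 0.23, limma adjusted p = 0.0823). With the culture as a block, so that both fractions of a culture are paired, THOC3 was called as a 4th gene (limma adjusted p = 0.0191), and the share of all genes called was 47%. Its ratio was -0.41 without control replicate 2 (limma adjusted p = 0.243).

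For THOC5, nuclear levels of 72.8, 55.4 and 69.8 FPKM overlapped with cytoplasmic/ER levels of 102, 68.5 and 87.1 FPKM. Its log2 N/C ratio was -0.33 (SE 0.25, limma adjusted p = 0.300). THOC7, which varied most of the 6 in the control nuclei, was at 46.0, 75.8 and 36.7 FPKM in the nucleus and 72.7, 102 and 67.0 FPKM in the cytoplasmic/ER fraction. Its ratio was -0.61 (SE 0.36, limma adjusted p = 0.187). By the plainer criterion that groups do not overlap, THOC1 and THOC2 were higher in the nucleus, as were 24.7% of all genes, and THOC6 was lower, as were 24% of all genes.

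**Figure D2:**
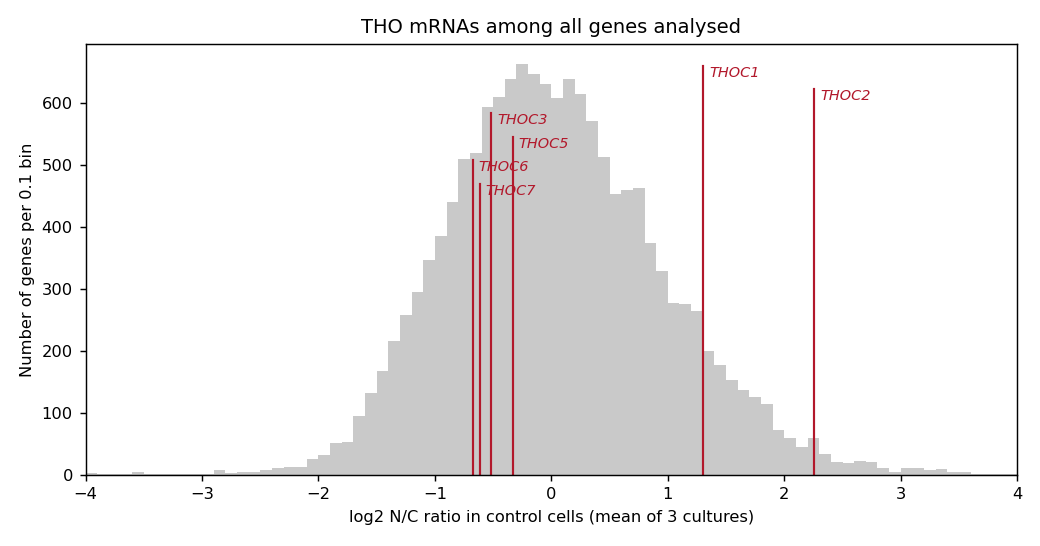
Number of genes (vertical axis) by log2 N/C ratio in control cells (horizontal axis, bins of 0.1) for the genes analysed, with the THO genes as red lines. THOC2 at 2.26 and THOC1 at 1.31 lie in the right tail, and THOC3, THOC5, THOC6 and THOC7 lie between -0.68 and -0.33.

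THOC1 and THOC2 were also nuclear-enriched in cells with either TPR shRNA. With TPR A the nuclear THOC2 levels were 23.2, 21.8 and 28.5 FPKM and the cytoplasmic/ER levels 7.92, 3.65 and 7.38 FPKM. THOC1 was at 9.48, 8.58 and 9.45 FPKM in the nucleus and at 4.92, 2.51 and 6.46 FPKM in the cytoplasmic/ER fraction. The groups were separate for both genes, as were 21.5% of genes in this direction and 20.6% in the other, where no THO gene stood.

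The log2 N/C ratio with TPR A was 2.02 for THOC2 (SE 0.30, limma adjusted p = 6.16e-05) and 1.08 for THOC1 (SE 0.27, limma adjusted p = 0.00483). These 2 of 6 were called, against 28.4% of all genes (15.2% higher and 13.2% lower). THOC1 was not called without TPR A replicate 2, at 0.74 (limma adjusted p = 0.0966). The other ratios were -0.22 for THOC3, -0.20 for THOC5, -0.41 for THOC6 and -0.76 for THOC7, none of which passed. Behind these, THOC3 was at 104, 114 and 95.2 FPKM in the nucleus and 117, 137 and 113 FPKM in the cytoplasmic/ER fraction, and THOC5 was at 64.6, 75.9 and 82.1 against 87.0, 103 and 69.0 FPKM. THOC6 was at 27.2, 40.4 and 33.5 against 38.4, 60.6 and 38.0 FPKM, and THOC7 at 66.2, 40.3 and 41.3 against 101, 50.8 and 106 FPKM. In each of these 4 genes the nuclear and cytoplasmic/ER ranges overlapped.

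With TPR D, nuclear THOC2 was at 31.2, 20.8 and 25.1 FPKM and cytoplasmic/ER THOC2 at 7.30, 3.33 and 9.13 FPKM. THOC1 was at 11.4, 13.02 and 12.3 FPKM in the nucleus against 5.50, 3.27 and 6.72 FPKM. The log2 N/C ratios were 2.07 for THOC2 (SE 0.30, limma adjusted p = 3.3e-05) and 1.31 for THOC1 (SE 0.27, limma adjusted p = 0.000881). Again these 2 of 6 were called, where 31.7% of all genes were (17.1% higher and 14.6% lower).

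The other ratios with TPR D were -0.33 for THOC3, -0.55 for THOC5, -0.42 for THOC6 and -0.62 for THOC7, without a call. In this group the fractions did not overlap for 5 of the genes. THOC1 and THOC2 were higher in the nucleus, as were 25% of all genes, and THOC5, THOC6 and THOC7 were lower, as were 22.8%.

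Culture by culture, the split between the subunits was the same throughout. The N/C ratio was between 2.82 and 6.13 for THOC2 and between 1.46 and 3.92 for THOC1, above 1 in 9 of 9 cultures, as for 24% of all genes. THOC2 had the higher ratio of the pair in 9 of 9 cultures, by 0.58 to 1.39 on the log2 scale. The ratio was below 1 in 9 of 9 cultures for THOC3 (0.601 to 0.913), THOC6 (0.481 to 0.885) and THOC7 (0.391 to 0.929), as for 23.9% of all genes. THOC5 was below 1 in 8 of 9, the exception being TPR A replicate 3 at 1.19, and 33.7% of all genes were below 1 at least as often. The lowest log2 ratio of THOC1, 0.55, was above the highest of the other 4 genes, 0.26.

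**Figure D3:**
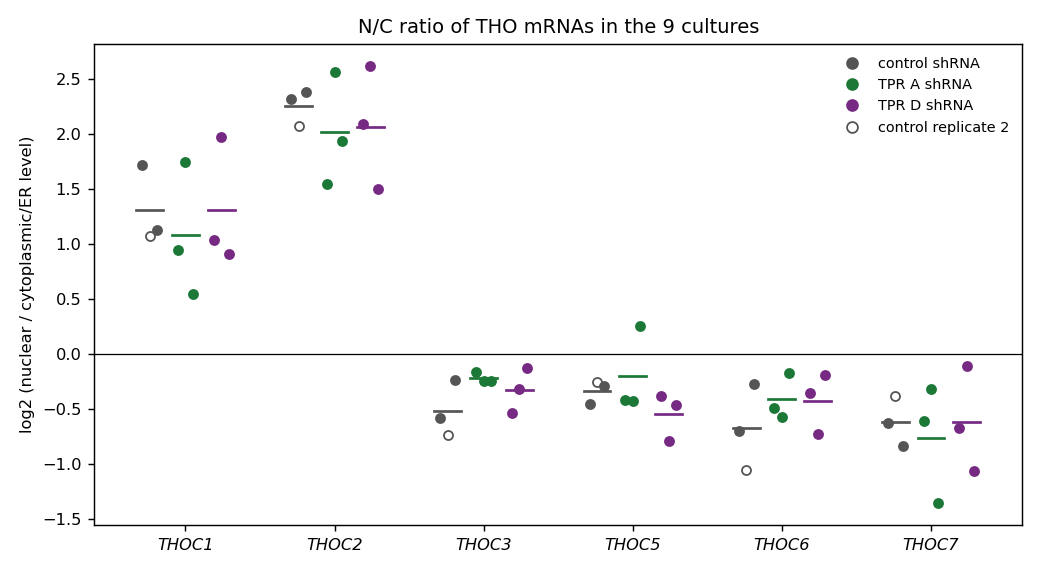
Log2 N/C ratio (vertical axis) of the 6 THO mRNAs in each of the 9 cultures, with bars at the mean of 3, the line at 0 marking a ratio of 1, and open points for control replicate 2. THOC1 and THOC2 lie above 0 in 9 of 9 cultures, and 1 of the other 36 points, THOC5 in TPR A replicate 3, is above 0.

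Location and build can be set side by side. Over 12333 mRNAs, the N/C ratio in control cells rose with mRNA length (Spearman rho = 0.398 across genes, which are not independent replicates), with the length of the gene before splicing (0.374) and with the number of exons (0.329). These lengths and exon numbers are medians over the annotated transcripts of each gene, unlike the MANE Select values given above. By these medians THOC2 had 3211 nt, THOC1 1413, THOC6 1330, THOC5 1006, THOC7 836 and THOC3 683 nt. THOC2, with the longest mRNA of the 6 by either measure, had the highest ratio. It stood well above the median log2 ratio of 0.51 in the 3581 mRNAs over 3000 nt. THOC1, next in median length, had 1.31. THOC5, at -0.33, has 4728 nt and 20 exons in its MANE Select transcript but medians of 1006 nt and 9 exons. THOC6 was longer than THOC5 by the median and had the lower ratio, -0.68. By the median number of exons, THOC1 (14.5) and THOC6 (13) stood above THOC2 (10). By the median length before splicing, THOC1 had 41723 nt, THOC7 29936, THOC2 21449, THOC5 17051, THOC3 8785 and THOC6 3700.5 nt. THOC7 thus stood above THOC2 in this length but had a log2 ratio of -0.61. None of these measures therefore ordered all 6 genes.

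The total sample was not placed alike for all subunits. THOC5 was lower in the total than in either fraction in 7 of 9 cultures, as were THOC3 and THOC6, and 19% of all genes were so placed at least as often. THOC1 lay between its fractions in 7 of 9 cultures, a placement that was not counted over all genes. THOC7 lay between in 4, above both in 4 and below both in 1, and 36.7% of all genes were above both at least as often. THOC2 lay above both in 5 of 9, and 30.4% of all genes were so placed at least as often. Without control replicate 2 these counts were 7 of 8 for THOC5, THOC3 and THOC6, where 18.4% of all genes were below both at least as often. They were 7 of 8 for THOC1 and 5 of 8 for THOC2, and for THOC7 4 between and 4 above. At least as often above both were 29.2% of all genes for the THOC2 count and 34.9% for the THOC7 count.

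The next comparison was whether TPR depletion changed the total level of THO mRNAs. With TPR A, none of the 6 was called in limma, where 0.821% of all genes were, and none reached an unadjusted p of 0.05, which 12.6% of genes did. The changes lay between -0.20 (THOC5) and 0.27 (THOC7) on the log2 scale. THOC2 was at 22.9, 26.9 and 21.2 FPKM in total RNA with TPR A and THOC3 at 95.3, 83.8 and 68.4 FPKM. THOC6 was at 23.2, 33.5 and 22.8 FPKM and THOC7 at 78.4, 65.4 and 42.1 FPKM. Without control replicate 2 the changes were -0.032 for THOC1, 0.12 for THOC2, 0.034 for THOC3, 0.025 for THOC5, 0.059 for THOC6 and 0.11 for THOC7, again without a call. No THO gene was separate from control in either direction, as were 9.74% of genes higher and 8.33% lower.

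With TPR D, again none of the 6 was called, where 0.753% of all genes were. THOC5 came nearest. Its total level was 54.9, 85.7 and 44.8 FPKM in control, 64.3, 39.4 and 47.8 FPKM with TPR A, and 22.8, 35.7 and 35.6 FPKM with TPR D. Each TPR D library was below each control library and each TPR A library, at 31.3 ± 7.45 against 61.8 ± 21.3 FPKM in control (SD, n = 3).

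On the log2 scale THOC5 differed by -0.88 between TPR D and control, with a 95% interval of -1.39 to -0.37 (SE 0.25). Its limma p was 0.00175 before adjustment and 0.0955 after it, so that it missed the threshold. THOC5 was the only one of the 6 at an unadjusted p under 0.05, which 14.6% of genes reached. The difference was -0.65 without control replicate 2 (limma adjusted p = 0.383), whose total library had the highest THOC5 level, and -1.20 in replicate 1 alone against -0.71 in replicates 2 and 3 (limma adjusted p = 0.467). Blocking on replicate number gave a limma adjusted p of 0.0555.

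The level of THOC5 in the fractions of the same TPR D cultures overlapped with control. It was 59.6, 60.7 and 46.3 FPKM in the nucleus, against 72.8, 55.4 and 69.8 FPKM in control. In the cytoplasmic/ER fraction it was 78.1, 106 and 66.1 FPKM, against 102, 68.5 and 87.1 FPKM. By the criterion of separate groups, THOC5 was the 1 THO gene lower in total RNA with TPR D, as were 7.93% of all genes.

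THOC2 was at 24.6, 26.6 and 19.9 FPKM in control total RNA and at 38.6, 26.9 and 25.5 FPKM with TPR D. These overlapped as deposited and were just separate once libraries were scaled, as were 8.2% of genes that stood higher. The log2 difference was 0.42 (95% interval -0.20 to 1.03, limma adjusted p = 0.527). THOC1 was at 8.70, 11.9 and 7.14 FPKM in control and at 12.2, 10.6 and 9.34 FPKM with TPR D, a log2 difference of 0.31 (95% interval -0.25 to 0.86). Both genes differed by 0.47 without control replicate 2, and neither was called.

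THOC3 was at 92.8, 139 and 71.3 FPKM in control total RNA, and at 91.1, 72.7 and 61.02 FPKM with TPR D. It differed by -0.32 (95% interval -0.80 to 0.16), and by -0.096 without control replicate 2. THOC6 was at 21.7, 34.9 and 29.9 FPKM in control and 30.4, 25.4 and 25.9 FPKM with TPR D, a difference of 0.015 (95% interval -0.48 to 0.51). THOC7 ranged from 37.5 to 95.3 FPKM within the TPR D group alone, and its difference of 0.19 had the widest interval, -0.56 to 0.94. The differences were 0.13 for THOC6 and 0.027 for THOC7 without control replicate 2.

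For THOC6 the intervals with both shRNAs lay within -0.55 to 0.51, whereas for THOC7 the interval with TPR A reached 1.02, a change of over 2-fold.

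The mean change over the pair of shRNAs gave no call among the 6 in total RNA, where 1.14% of genes were called. THOC5, at -0.54, was the 1 of 6 with an unadjusted p under 0.05, which 16.1% of genes reached. It was at -0.31 without control replicate 2 (limma adjusted p = 0.786), and then none of the 6 reached an unadjusted p of 0.05, as 8.58% of genes did. The other mean changes in total RNA were 0.055 for THOC1, 0.24 for THOC2, -0.25 for THOC3, -0.021 for THOC6 and 0.23 for THOC7. In the same order these were 0.22, 0.29, -0.031, 0.095 and 0.066 without control replicate 2. In nuclear RNA none was called and none reached an unadjusted p of 0.05 (0.808% of genes called, 11.8% at the unadjusted threshold). In cytoplasmic/ER RNA the same held, where 0.643% of genes were called and 11.4% were at the unadjusted threshold. The mean changes of the 6 lay between -0.19 (THOC2) and 0.28 (THOC6) in nuclear RNA and between -0.15 (THOC3) and 0.12 (THOC1) in cytoplasmic/ER RNA. Without control replicate 2 they lay between -0.16 (THOC2) and 0.16 (THOC7) in nuclear RNA, with THOC6 at 0.13. In cytoplasmic/ER RNA they then lay between -0.15 (THOC5) and 0.16 (THOC1).

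The shRNAs were also compared with each other in total RNA. THOC5 was higher with TPR A than with TPR D in each library, as were 7.98% of genes. The log2 difference was 0.67 (SE 0.25), with a limma p of 0.0122 before and 0.402 after adjustment. It was 1.48 in replicate 1 alone and 0.27 in replicates 2 and 3. THOC1 was lower with TPR A, at 8.23, 7.78 and 6.76 FPKM against 12.2, 10.6 and 9.34 FPKM with TPR D, without overlap, as were 7.2% of genes. That difference was -0.50 (SE 0.27, limma adjusted p = 0.779). The others were -0.35 for THOC2, 0.13 for THOC3, -0.073 for THOC6 and 0.079 for THOC7. None of the 6 was called (0.281% of genes), and 1 of 6 was at an unadjusted p under 0.05 (7.41% of genes).

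The last comparison was the N/C fold change, the N/C ratio in TPR-depleted cells against that in control cells. No THO mRNA became more nuclear or more cytoplasmic by the test. With TPR A the log2 changes were -0.23 for THOC1, -0.24 for THOC2, 0.30 for THOC3, 0.14 for THOC5, 0.26 for THOC6 and -0.15 for THOC7. With TPR D they were 0.0020 for THOC1, -0.19 for THOC2, 0.19 for THOC3, -0.21 for THOC5, 0.25 for THOC6 and -0.0017 for THOC7.

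Several of these changes moved without control replicate 2. With TPR A they were then -0.35 for THOC1, -0.33 for THOC2, 0.19 for THOC3, 0.17 for THOC5, 0.073 for THOC6 and -0.028 for THOC7. With TPR D they were -0.12 for THOC1, -0.28 for THOC2, 0.081 for THOC3, -0.18 for THOC5, 0.063 for THOC6 and 0.12 for THOC7. Again none was called.

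None of the 6 was called by limma for either shRNA, and 0% of all genes were. None reached an unadjusted p of 0.05, which 1.47% of genes did for TPR A (0.821% for TPR D). In the mean of the shRNAs and in TPR A against TPR D the members' counts were likewise 0, where 0% of genes were called and 1.72% and 0.335% reached the unadjusted threshold.

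A p above the threshold does not show that location stayed the same. In the fit without pairing of fractions, the 95% intervals for THOC1 were -1.02 to 0.56 with TPR A and -0.79 to 0.79 with TPR D. For THOC2 they were -1.11 to 0.62 and -1.05 to 0.67. The tightest were those of THOC3, -0.38 to 0.98 and -0.49 to 0.87. A shift of the size of the THOC2 ratio itself would lie outside each of these intervals, but a rise of 0.5 on the log2 scale would lie within each.

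**Figure D4:**
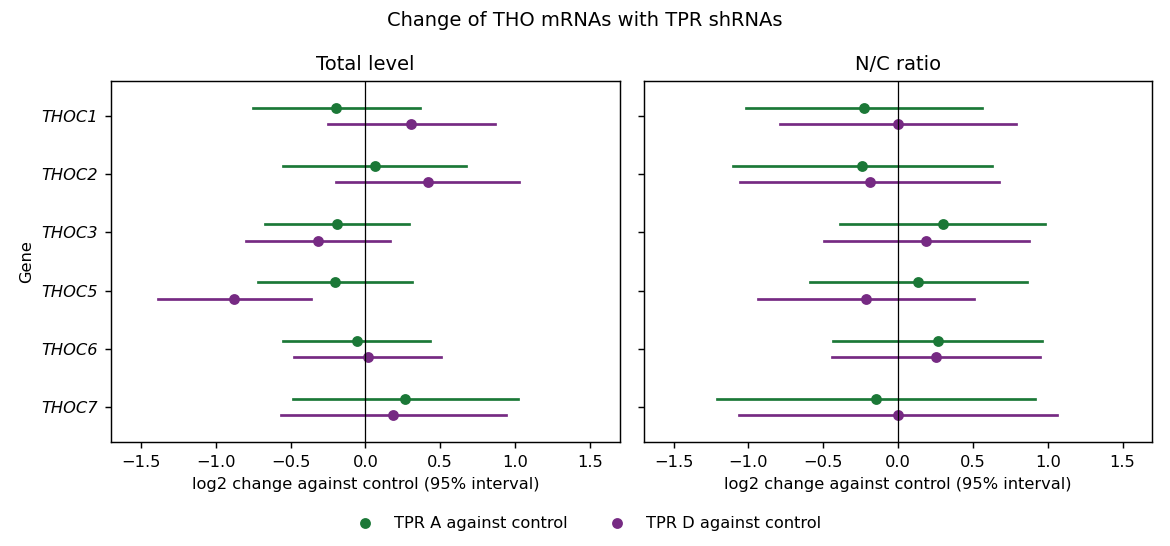
Log2 change against control (horizontal axis) of the total level, left, and of the N/C ratio, right, for each THO gene. Points are limma estimates and lines the 95% intervals, from 3 cultures per group, with the fractions of a culture not paired. The interval of THOC5 with TPR D in total RNA, -1.39 to -0.37, is the 1 of 24 that leaves out 0, and its adjusted p is 0.0955.

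The rest of the TREX and export pathway was taken as a list of 16 genes, of which 15 passed the minimum of 1 FPKM and LUZP4 did not. In control cells 4 of 15 were called for location, where 39.4% of all genes were. ZC3H11A, a zinc finger protein bound to TREX, was nuclear-enriched with a log2 N/C ratio of 1.75 (limma adjusted p = 3.14e-05), and NCBP1, the large cap-binding subunit, with 0.91 (limma adjusted p = 0.00125). NXT1, the partner of NXF1, had -1.33 (limma adjusted p = 0.000995), and ERH, a small factor found with TREX and splicing proteins, had -0.83 (limma adjusted p = 0.0221). Without control replicate 2 ERH was not called (-0.81, limma adjusted p = 0.0908) and the other 3 were.

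ZC3H11A and NCBP1 were the 2 of 15 called with TPR A, at 1.38 and 0.83 (28.4% of all genes called), and also with TPR D, at 1.64 and 0.61 (31.7% of all genes called). Without control replicate 2 in the fit, NXT1 was also called with TPR D, at -0.74 (limma adjusted p = 0.0494, 35% of all genes called). With TPR A it was then at -0.74 and just missed the threshold (limma adjusted p = 0.0511). ALYREF and DDX39B, which THO recruits, had control log2 N/C ratios of -0.44 and -0.13, and neither was called. The ratios were -0.085 and 0.13 without control replicate 2, so that the sign for DDX39B turned with that culture. The median control ratio was -0.42 over the 6 THO genes, 0.052 over the 15 pathway genes and -0.014 over all genes. These medians were -0.39, 0.13 and -0.0059 without control replicate 2.

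No pathway gene was called for a change in total level or in N/C ratio with either shRNA. At an unadjusted p under 0.05 stood NXF1 in total RNA with TPR A, at -0.79 (limma adjusted p = 0.163), and NCBP1 in total RNA with TPR D, at -0.48 (limma adjusted p = 0.279). These are 1 of 15 with each shRNA, against 12.6% and 14.6% of all genes. The total levels of NXF1, the export receptor, were 22.3 ± 3.19 FPKM with TPR A and 42.0 ± 15.9 FPKM in control (SD, n = 3). In control replicates 1, 2 and 3 NXF1 was at 35.1, 60.2 and 30.8 FPKM and NCBP1 at 18.8, 36.7 and 18.4 FPKM, highest for both in replicate 2. Without that culture the NXF1 change with TPR A was -0.54 (limma adjusted p = 0.587) and the NCBP1 change with TPR D was -0.19 (limma adjusted p = 0.853), past the unadjusted threshold for NXF1 alone of the pair. CHTOP, an export factor of TREX, was then at 0.69 with both TPR A (limma adjusted p = 0.356) and TPR D (limma adjusted p = 0.336), and NCBP2, the small cap-binding subunit, at -0.42 with TPR A (limma adjusted p = 0.441), each at an unadjusted p under 0.05. With all cultures these were 0.30 for CHTOP with either shRNA and -0.32 for NCBP2. Without control replicate 2, 8.41% of all genes were at an unadjusted p under 0.05 with TPR A and 9.05% with TPR D.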

How the data were processed

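RNA Frac-Seq libraries (27, from U2OS cells) were made from poly(A)+ RNA with a directional kit. The authors quantified reads with Salmon on protein-coding and lncRNA transcripts of an early Gencode release (hg19 per the labels), used tximport for the step to gene level, and FPKM for 34464 genes were deposited. The authors computed their own fold changes with DESeq2. Counts were not used here. Low values fall on steps of 1 read, from which depth was estimated, and 1 FPKM on 1 kb stood for 32.1 to 88.7 reads (median 49.8). FPKM of a gene with shared sequence depend on how reads were divided.

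Samples were grouped by shRNA and fraction from their titles. Genes averaging above 1 FPKM were kept, without the 13 of the mitochondrial genome, 14611 in all. Libraries were scaled by median-of-ratios factors (0.954 to 1.06) and 0.1 was added before log2, so that fold changes of low genes are understated. limma 3.58.1 in R 4.3.3 was fitted on all 27 libraries in 9 groups (eBayes with trend, 2-sided), with Benjamini-Hochberg adjustment over all genes and a threshold of 0.05. The fit was tested on simulated data with independent noise in each library. These lacked the shared deviation between libraries described below, so they do not show how the tests behave with it. Nothing states that cultures were infected separately, so p-values cover the spread between these samples. Structures came from GENCODE release 44 on GRCh37 (32776 IDs matched, 1688 not), and shared sequence from BLAST 2.17.0. Descriptions used Python 3.11.15 with numpy 2.4.6, pandas 2.3.3, scipy 1.17.1 and matplotlib 3.10.9.

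Nuclear and cytoplasmic/ER libraries of a replicate number came from 1 culture and deviated together (correlations of 0.223 to 0.469). Between shRNAs, each same-numbered pair was over 0.1 only for control and TPR A in total RNA (0.137 to 0.324) and for TPR A and TPR D in nuclear (0.131 to 0.266) and cytoplasmic/ER RNA (0.398 to 0.597).

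All 6 members are named or given by their range in each comparison, pathway genes where called or few, and the 5 genes most like the members' mean profile. The members and lists were chosen with earlier results of these data known. Alternatives were unscaled values, a pseudocount of 1 or 0.01, no minimum or a minimum of 5 FPKM, each culture left out, replicates 2 and 3 or 1 only, the replicate number or culture as a block, no trend, and only the groups compared. The N/C ratios within TPR A and TPR D cells were added after the data were seen.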

Additional observations from a re-analysis of the deposited data

Results flagged for a closer look

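THOC1 was the 1 THO gene whose total level was below the control mean in each culture with one TPR shRNA and above it in each culture with the other. Against the mean of the control cultures, its log2 level was -0.35 to -0.076 in the 3 TPR A cultures and 0.13 to 0.51 in the 3 TPR D cultures. The difference between the shRNAs was -0.50 on the log2 scale (SE 0.27, limma adjusted p = 0.779), so it did not pass the test. The control mean includes control replicate 2, whose total library had the highest control THOC1 level, 11.9 FPKM. Without that culture THOC1 differed from control by -0.032 with TPR A and by 0.47 with TPR D. TPR A replicates 1 and 2, at 8.23 and 7.78 FPKM, then lay between the remaining control libraries, at 8.70 and 7.14 FPKM. The side of the pattern below control thus rested on control replicate 2.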

How the results depend on the processing

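The limits are 3 cultures per group, no counts, and levels that are relative within each library. The THO gene with fewest estimated reads was THOC1, at 168 in the cytoplasmic/ER library of TPR A replicate 2, a counting error of 7.72%. This estimate takes the MANE Select length of 2108 nt, and the median THOC1 length of 1413 nt would give fewer reads and a larger error. No THO gene was called for a change with TPR in any setting tried. For the N/C change this cannot show stability. There 0% of all genes were called in the main fit, with either block, without a trend, on unscaled values and without control replicate 2. Counts of called N/C ratios fell from 3 to 1 in control cells with replicates 2 and 3 only, and from 2 to 1 with TPR A in that setting and with only the groups compared in the model. Leaving out 1 culture gave 1 to 2 for TPR A. The pairing of replicate numbers was tried as a block, with 0 calls for changes in total level or N/C ratio. Among all genes 2.59% were then called in total level with TPR A, 3.16% with TPR D, and 0% in N/C change. The same block gave 4 calls for the control N/C ratio, where 45.7% of all genes were called. Of the values of single genes under the alternatives, 816 were counted as unchanged, 30 turned sign in a tested setting, 8 lost and 2 gained a call, and 10 with no test moved by more than the spread. Unchanged meant the same direction and side of the threshold. For replicate 1 alone, which has no test, it meant a move within the spread, whatever the sign. Sign changes there, such as THOC3 in total RNA with TPR A (0.089, negative with all cultures), are thus not among the 30. Of the counts 4 were lower and 237 stayed within 1.5 times, which says nothing of stability where no THO gene was called to begin with. Small changes that missed the test turned sign. As deposited, the values were -5.63e-05 for THOC2 in total RNA with TPR A, -0.061 for THOC6 in total RNA with TPR D and 0.014 for the N/C change of THOC7 with TPR D. With replicates 2 and 3 only, they were -0.25 for THOC6 in total RNA with TPR D, 0.048 and 0.027 for the N/C change of THOC1 and THOC2 with TPR A, and 0.022 for that of THOC7 with TPR D. Leaving out 1 culture at a time, total levels with TPR A ranged from -0.034 to 0.14 for THOC2, -0.39 to 0.034 for THOC3, -0.39 to 0.025 for THOC5 and -0.24 to 0.059 for THOC6, and with TPR D from -0.17 to 0.13 for THOC6 and -0.19 to 0.48 for THOC7. N/C changes ranged from -0.56 to 0.033 for THOC1, -0.096 to 0.25 for THOC5 and -0.37 to 0.15 for THOC7 with TPR A, and from -0.33 to 0.21 for THOC1, -0.46 to 0.094 for THOC2 and -0.25 to 0.22 for THOC7 with TPR D. The cause was not tested.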

Other observations

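Over the 27 libraries, the log2 levels of THOC1 and THOC2 had a Pearson r of 0.93, and THOC3 had 0.66 with THOC5 and 0.64 with THOC6. THOC1 had negative values with each of the other 4, from -0.68 with THOC6 to -0.32 with THOC7. These libraries share cultures, and the fractions set much of the spread, so these are descriptions. The genes whose profile was most like the mean of the 6 THO genes were HAT1 (r = 0.92), PSMC6 (0.90), MRPS9 (0.90), DPM1 (0.89) and BRIX1 (0.88). The members themselves had 0.74 (THOC1), 0.67 (THOC2), 0.067 (THOC7), 0.022 (THOC3), -0.23 (THOC5) and -0.41 (THOC6) with that mean, so that no single profile stood for the 6.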
